A study of Mus musculus with 12 samples.

Results

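Cholesterol synthesis, uptake and efflux were followed through 32 genes in mouse liver on 2-colour oligonucleotide arrays. The genes were taken by name, as a list of known roles in this pathway, and the list was drawn up with earlier results of these data known. They comprised 19 enzymes of cholesterol synthesis (7 of the mevalonate arm and 12 of the squalene and sterol arm), 4 regulators, 4 genes of sterol uptake and movement inside cells, 1 sterol-esterifying enzyme and 4 efflux transporters. All 32 had a probe on the array, and 31 were measured, out of 14911 genes measured in all. The exception was Npc1l1, a sterol uptake protein known mainly from the gut, whose 1 probe was on no array well above background.

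The livers came from male mice aged 14 weeks in 4 groups of 3 arrays. The wild-type mice were C57BL6/J, and the others are labelled Cyp1b1 null, and the labels name no strain or allele for them. The product of Cyp1b1 is a P450 enzyme that acts on steroid hormones, retinoids and many foreign compounds. From weaning at 3 weeks the mice of each genotype ate either a low-fat diet, in which the labels give fat as 10%, or a high-fat diet, given as 60%. The labels describe each array's RNA as 3 samples pooled, and they give the tissue as liver hepatocytes. Nothing says whether the pools of a group came from separate litters or cages, so the tests measure only the spread between these arrays. The sample was labelled with Cy3, and the same pool of wild-type low-fat liver was labelled with Cy5 on every array. Each value below is the log2 ratio of the sample to that pool, from the gene's brightest probe, and 3 values in a row stand in the order of the replicate numbers. A ratio of 0 is not the level of the wild-type low-fat arrays. Their own means were, for example, 0.57 for Abcg5 and -0.67 for Insig2. A value above or below 0 is thus not by itself a difference from that group. The 12 arrays were scanned on 3 days. Scan 1 held 6 arrays, scan 2 held 1 array of each group, and scan 3 held 1 wild-type array of each diet. Null low-fat arrays 2 and 3, both of scan 1, were alone on slide 2, and the rest of scan 1 was on slide 1. Within scan 1, diet in null and genotype on low fat therefore also compare slide 2 with slide 1. Slide and group cannot be told apart there.

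Cells make cholesterol from acetyl-CoA. The mevalonate arm builds isoprenoid units up to farnesyl diphosphate, and the squalene and sterol arm joins, cyclises and trims them to cholesterol. The transcription factor SREBP-2 (encoded by Srebf2) switches these enzymes on when membrane sterol is low. Scap carries it out of the endoplasmic reticulum, and the Insig proteins hold it there when sterol is high. When oxysterols build up, LXR receptors instead induce the ABC transporters that export sterol. Hepatocytes send sterol into bile through the paired transporters Abcg5 and Abcg8, and to lipoproteins through Abca1.

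The promoters of 3 synthesis enzymes are shown because they had the largest differences of the 19 synthesis enzymes in the 4 comparisons of 2 groups. Of the 32 genes, 24 were found in the RefSeq promoter table for GRCm38.p6, which holds 250 bases before and 50 after each transcript start. Only the 250 bases before the start are printed, 5′ to 3′ on the strand of the gene. They span chr13:119690101-119690350 (plus strand) for Hmgcs1, chr13:8885356-8885605 (plus strand) for Idi1 and chr8:64733579-64733828 (minus strand) for Sc4mol, now named Msmo1. Capitals mark CCAAT on either strand (ATTGG on the other) and TCACNCCAC, a form of the sterol regulatory element.
Hmgcs1: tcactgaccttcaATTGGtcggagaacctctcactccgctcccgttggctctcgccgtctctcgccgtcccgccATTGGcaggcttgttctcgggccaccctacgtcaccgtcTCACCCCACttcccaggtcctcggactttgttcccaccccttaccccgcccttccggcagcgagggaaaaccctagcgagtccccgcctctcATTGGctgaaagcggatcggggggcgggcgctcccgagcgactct
Idi1: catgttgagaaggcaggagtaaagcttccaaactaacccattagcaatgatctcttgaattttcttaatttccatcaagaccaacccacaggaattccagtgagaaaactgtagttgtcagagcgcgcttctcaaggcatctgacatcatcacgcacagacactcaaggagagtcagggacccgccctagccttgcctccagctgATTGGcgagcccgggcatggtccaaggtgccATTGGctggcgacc
Sc4mol: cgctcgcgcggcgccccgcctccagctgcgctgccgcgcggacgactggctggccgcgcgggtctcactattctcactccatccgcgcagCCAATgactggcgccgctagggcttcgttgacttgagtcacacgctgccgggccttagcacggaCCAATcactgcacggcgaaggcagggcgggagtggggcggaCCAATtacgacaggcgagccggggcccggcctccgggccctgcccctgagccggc
A gene was counted for a motif when any of its promoters in the table held it. Over the 300 bases, CCAAT was found on either strand for 21 of the 24 genes. The share was 42.5% of the 10281 array-measured genes in the table and 41.1% of all its 27025 genes. The 3 of the 24 without CCAAT were Acat2, Scap and Abca1. Among the 16 synthesis enzymes with a promoter, 15 held it. TCACNCCAC was found for Hmgcs1 alone, against 1.53% of the measured genes and 1.44% of all genes in the table. In Hmgcs1 it begins at position -137 from the transcript start. The GC box GGGCGG, on either strand, was found for 20 of the 24, against 65.1% of the measured genes and 38.2% of all genes in the table. None of the marked letters overlap a GC box in the 3 promoters printed. These matches describe the letters only.

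Between 18375 and 23439 of 41174 probes were well above background per array in the sample channel, and 17286 to 25998 in the reference channel. The 31 genes were well above background in the sample channel on all 12 arrays, and none was saturated. The measured Cyp1b1 probe, well above background on 10 of 12 arrays, was brighter in the livers labelled null. Its ratios ran from 0.65 to 1.68 there and from -1.11 to 0.15 in wild-type (limma, mean of both diets 1.99, SE 0.24, adjusted p = 0.00561, higher on 6 of 6 arrays). The other Cyp1b1 probe, well above background on 2 arrays, overlapped between genotypes: -0.013 to 0.28 in null and -0.075 to 0.058 in wild-type. No label or file used here places the measured probe inside or outside the deleted part. That probe therefore does not check the genotypes, and every genotype direction below rests on the labels. All 10 hepatocyte markers looked for, Alb among them, were measured. So were 10 of 10 Kupffer cell and macrophage markers, 8 of 8 stellate, 6 of 6 endothelial, 5 of 5 bile duct, 4 of 6 lymphocyte, 1 of 5 adipocyte and 2 of 4 pancreas acinar markers; markers of other liver cells were thus present beside those of hepatocytes.

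No gene of the 31 passed limma's Benjamini-Hochberg threshold of 0.05 in any of the 7 comparisons. The background was also low. The share of all genes passing was 0.0201% for null against wild-type on low fat, 0.0134% on high fat, 0.00671% for diet in wild-type and 0.00671% for diet in null. It was 0% for the interaction, 0.288% for genotype and 0.0335% for diet as means over the other factor. At an unadjusted p under 0.05, 1 gene was higher and 0 lower in null on low fat, against 3.43% and 3.76% of all genes, and on high fat 0 were higher and 3 lower, against 1.22% and 1.35%. For high against low fat, 2 were higher and 0 lower in wild-type, against 1.81% and 2.21%, and 1 was higher and 3 lower in null, against 0.858% and 1.05%.

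Groups whose 3 arrays all lay on one side of the other group's were counted too. On low fat 1 gene (Mvk) had all null arrays higher and 1 (Hmgcs1) all lower, against 4.81% and 4.52% of all genes. On high fat 0 were higher and 5 lower (Hmgcs1, Sc4mol, Hsd17b7, Sc5d and Stard4), against 3.65% and 4.09%. For diet in wild-type 2 were higher (Idi1 and Sc4mol) and 1 lower (Sc5d), against 3.55% and 3.69%. For diet in null 1 was higher (Abcg5) and 5 lower (Hmgcs1, Mvd, Fdps, Sqle and Srebf2), against 2.3% and 2.53%. Values below are therefore given as levels and differences, and none of them is a change called by the test.

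**Figure D1:**
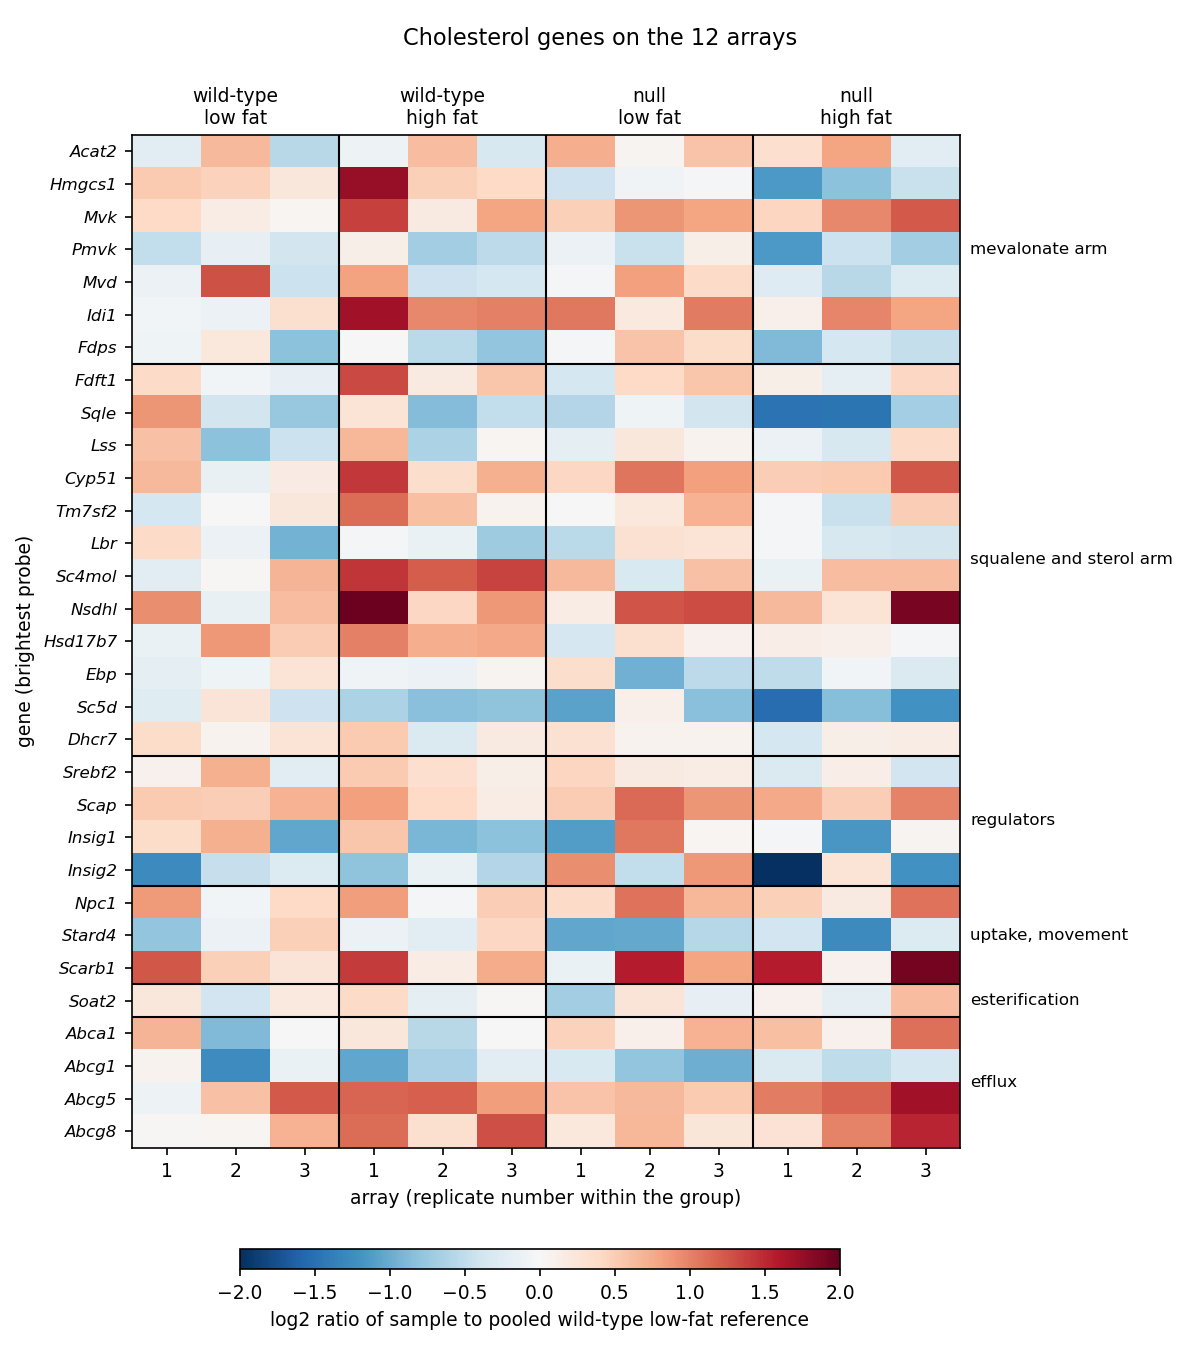
Log2 ratio of sample to pooled wild-type low-fat reference (colour, from -2 to 2) for the 31 measured genes (rows, by role) on the 12 arrays (columns, replicates 1 to 3 of each group). Array 1 of the wild-type high-fat group is the reddest column of the synthesis rows, with a median of 0.80.

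Of the 19 synthesis enzymes, 14 were lower and 5 higher on high fat in null livers, where 54.5% of all genes were higher. The median difference was -0.14, against 0.018 over all genes. In wild-type livers 11 were higher and 8 lower on high fat, close to the 51.2% of all genes that were higher. The median there was 0.24, against 0.0064 over all genes, and it was 0.033 without wild-type high-fat array 1. The interaction, which is the diet difference in null minus that in wild-type, was below 0 for 17 of the 19 (median -0.57), against 48% of all genes. Each of these descriptions shares groups with the others.

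Read by genotype, the same levels gave a median of 0.19 in null against wild-type on low fat (13 higher, 6 lower) and -0.38 on high fat (3 higher, 16 lower). The share of all genes above 0 was 49.1% and 50.6%. These counts moved with the processing. Over 26 other fitted settings the number of enzymes lower ranged from 0 to 9 on low fat and from 10 to 18 on high fat. The high-fat count was 10 without wild-type high-fat array 1, and also with each array centred on its median in place of loess. The low-fat count was 9 with the scan as a block, where the median was 0.073. Bulk RNA cannot tell fewer hepatocytes from less RNA per hepatocyte. The hepatocyte markers had per-array medians of -0.35 to 0.25 in wild-type on low fat, -0.34 to 0.48 on high fat, 0.017 to 0.55 in null on low fat and 0.079 to 0.46 on high fat. Of these 10 markers, 8 had an interaction below 0 (median -0.16) and 8 were higher in null on low fat (median 0.31). Of the 10 Kupffer cell and macrophage markers, 9 had an interaction above 0 (median 0.59). All 10 were lower on high fat in wild-type, 9 of 10 were higher in null on high fat, and none passed the test. Their per-array medians ran from -1.33 to 0.31 and from -1.04 to -0.20 in wild-type on low and high fat, and from -0.88 to -0.026 and -0.92 to -0.018 in null. The interaction was above 0 for 5 of 5 bile duct markers (median 0.29), 5 of 6 endothelial markers (0.14) and 5 of 8 stellate markers (0.51). The only adipocyte marker measured differed by -2.91 (log2) between null and wild-type on high fat, without overlap, and did not pass the test. Its spread was wide, with an SD within groups of 1.69. On low fat its arrays ran from -0.99 to 2.39 in wild-type and from -0.99 to 3.47 in null. The part of these markers in the result was not tested.

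One array carried much of the wild-type diet difference. On array 1 of the wild-type high-fat group, the highest of its group for 17 of the 19 enzymes, the synthesis median was 0.80, against 0.18 and 0.074 on arrays 2 and 3. The 3 low-fat wild-type arrays had medians of -0.059, -0.013 and 0.046. The null arrays had -0.027, 0.21 and 0.37 on low fat and -0.12, -0.19 and -0.043 on high fat. The null groups thus did not overlap but nearly touched, at -0.027 and -0.043, beside an SD within groups of 0.22. Within scan 1 the wild-type diet median was 0.77, within scan 2 it was -0.022 and within scan 3 it was 0.24. For null against wild-type on high fat it was -0.74 within scan 1 and -0.012 within scan 2. Without that array the median was -0.14 for genotype on high fat and -0.28 for the interaction. Scaling also moved these medians. With each array centred on its median in place of loess, the median over all genes itself moved to 0.33 for genotype on low fat and -0.21 for the interaction, and the synthesis medians were 0.73 and -0.87.

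**Figure D2:**
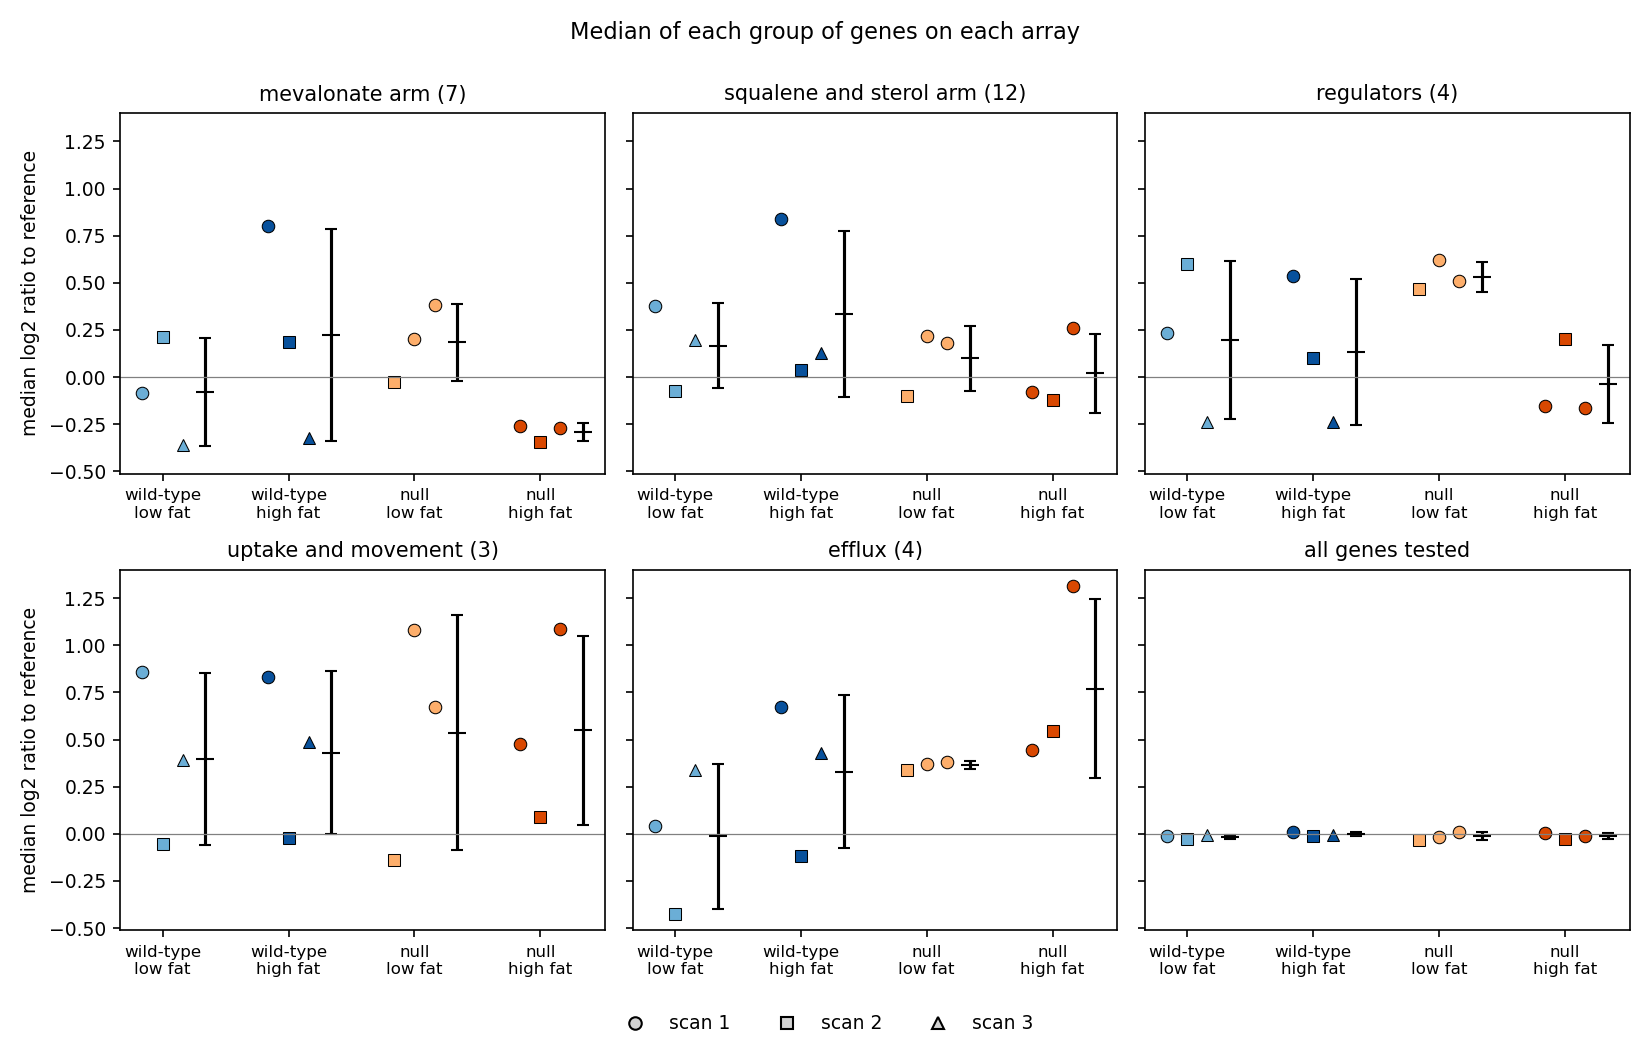
Median log2 ratio over each group of genes on each array (points, shaped by scan), with the mean ± SD of 3 arrays beside them. The mevalonate arm sits at -0.34 to -0.26 on the 3 null high-fat arrays, the wild-type high-fat group spans -0.32 to 0.80, and the median over all genes tested stays close to 0.

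In the mevalonate arm the interaction was below 0 for 7 of 7 enzymes (median -0.57). Null livers were lower than wild-type on high fat for 5 of the 7 (median -0.38) and on low fat for 1 of the 7 (median 0.49). The median diet difference was -0.60 in null, with 6 of 7 lower, and 0.11 in wild-type, with 4 of 7 higher.

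Hmgcs1, which condenses acetyl-CoA with acetoacetyl-CoA to HMG-CoA and is a classic SREBP-2 target, had the lowest p of the 31 genes. Its ratios were 0.52, 0.46 and 0.23 in wild-type on low fat and 1.73, 0.47 and 0.40 on high fat. They were -0.41, -0.065 and -0.037 in null on low fat and -1.15, -0.83 and -0.45 on high fat. The lowest wild-type array, at 0.23, lay above the highest null array, at -0.037, so all 6 null arrays were below all 6 wild-type arrays. Hmgcs1 was the only gene of the 31 with that separation, which 0.712% of all genes had in either direction. On high fat null was lower by 3.20-fold (log2 difference -1.68, SE 0.32, 95% interval -2.38 to -0.98, limma adjusted p = 0.217, 3 of 3 arrays below). On low fat the difference was -0.58 (SE 0.32, adjusted p = 0.772), and over both diets -1.13 (SE 0.23, adjusted p = 0.0873). With arrays centred on their median in place of loess the low-fat difference was 0.03. Without wild-type high-fat array 1 the high-fat difference was -1.25. Within scan 1 and scan 2 the high-fat difference was -2.54 and -1.30, and the low-fat difference -0.57 and -0.88.

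The adjusted p of Hmgcs1 turned on the processing. It was 0.00706 on high fat and 0.00387 over both diets from the sample channel alone, and 0.0258 over both diets with the scan as a block. The other 2 Hmgcs1 probes gave smaller differences of -0.81 and -0.31 on high fat. On low fat they gave 0.54 and -0.17, so the probes disagreed in sign there. Over both diets they gave -0.13 and -0.24, against -1.13 for the brightest probe. The first of these 2 probes was well above background on all 12 arrays and the second on 6. The gene's spot on null high-fat array 1 needs care. Its reference signal was 4700, and the median of its local background 68.5, but the scanner software subtracted a background of 7142 and left a processed reference signal of 20.11. The software's log2 ratio there was 9.48, against -0.82 and -0.63 on the other null high-fat arrays. The authors' deposited table, which holds differences of the software's ratios, gives Hmgcs1 as 1.90 for null against wild-type on high fat, the opposite sign to the value above. The values used here subtract the local median and gave -1.15 on that array.

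Idi1, which isomerises isopentenyl diphosphate, was the synthesis enzyme with the largest diet difference in wild-type. Its ratios were -0.059, -0.12 and 0.33 on low fat and 1.68, 0.96 and 1.01 on high fat, without overlap. In null they were 1.05, 0.20 and 1.03 on low fat and 0.11, 0.98 and 0.79 on high fat, which overlapped. The wild-type difference was 1.17 (SE 0.30, 2.24-fold, limma adjusted p = 0.844), and it was 1.74, 1.08 and 0.68 within the 3 scans. In null the difference was -0.13 (95% interval -0.80 to 0.53), and the interaction was -1.30 (SE 0.43, adjusted p = 1). Null livers on low fat were 0.71 above wild-type (SE 0.30, adjusted p = 0.665), and the second Idi1 probe gave 0.29 there and 0.78 for diet in wild-type.

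Fdps, which makes farnesyl diphosphate, differed by diet in null instead. It read -0.040, 0.58 and 0.37 in null on low fat and -0.89, -0.34 and -0.48 on high fat. The wild-type arrays read -0.086, 0.21 and -0.82 on low fat and 0.0064, -0.53 and -0.79 on high fat, with wide overlap. The diet difference in null was -0.87 (SE 0.30, limma adjusted p = 1), or -1.16 within scan 1 and -0.30 within scan 2. In wild-type it was -0.21, and the second Fdps probe gave -1.10 in null.

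The remaining mevalonate enzymes had smaller differences. Pmvk, the phosphomevalonate kinase, differed by -0.60 with diet in null (SE 0.25, limma adjusted p = 1). Mvk, the mevalonate kinase, was 0.52 higher in null on low fat (log2 scale), with no overlap, and 0.58 higher on high fat in wild-type, with overlap. Over both genotypes its diet difference was 0.37, and with the sample channel alone it was 0.65 with an adjusted p of 0.0365 by limma. Mvd, which decarboxylates mevalonate diphosphate, differed by -0.76 with diet in null, where the arrays lay at -0.027 to 0.82 on low fat and at -0.56 to -0.26 on high fat, without overlap. Acat2, the cytosolic acetoacetyl-CoA thiolase, was 0.49 and 0.25 above wild-type on low and high fat. Its level also went with the scan: the 4 arrays of scan 2 read 0.62 to 0.79, and the 6 of scan 1 read -0.23 to 0.57.

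**Figure D3:**
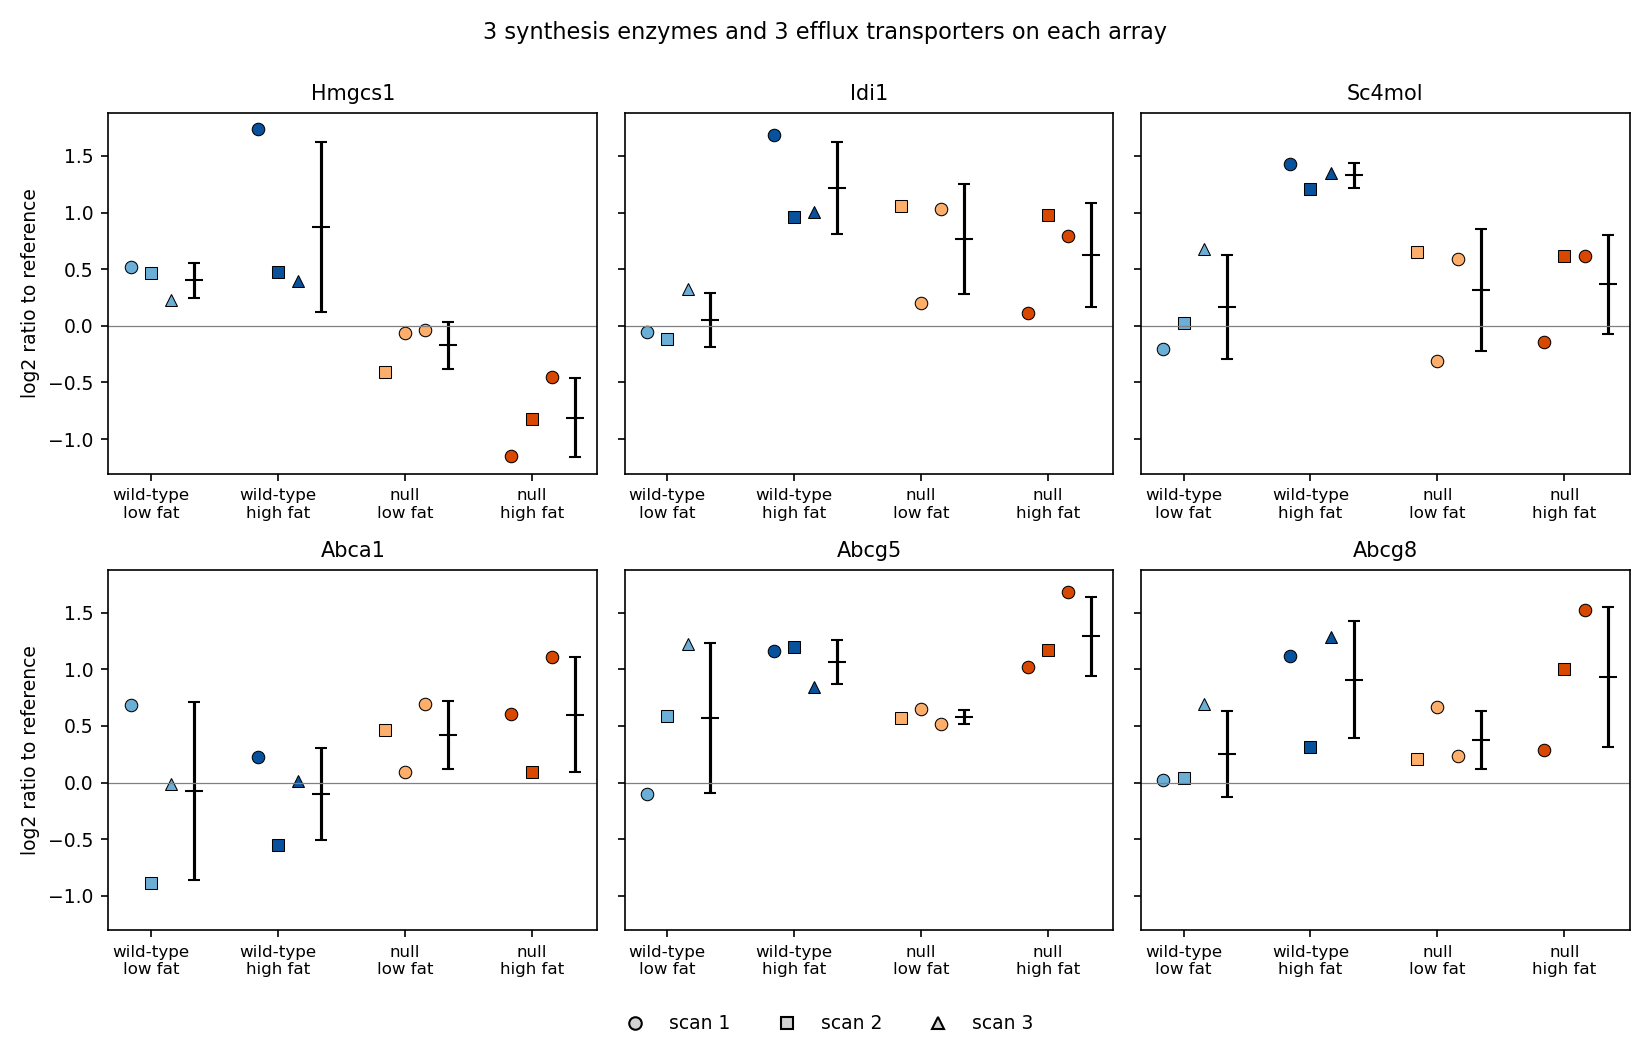
Log2 ratio to the reference for Hmgcs1, Idi1, Sc4mol, Abca1, Abcg5 and Abcg8 on each array (points, shaped by scan), with the mean ± SD of 3 arrays. Hmgcs1 is below 0 on all 6 null arrays, and Sc4mol lies at 1.21 to 1.43 for the 3 arrays of wild-type livers on high fat and at 0.68 or less elsewhere.

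In the squalene and sterol arm, 11 of 12 enzymes were lower in null on high fat (median -0.34), against 49.4% of all genes. This count also turned on single arrays. Leaving out 1 array at a time brought Lss up to 0.28, Cyp51 to 0.21, Nsdhl to 0.30 and Dhcr7 to 0.021. It brought Lbr, the enzyme that was higher, down to -0.15, and the others stayed negative. Without wild-type high-fat array 1, 10 of all 19 synthesis enzymes were lower. On low fat 5 of 12 were lower (median 0.15).

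Sc4mol, the methylsterol monooxygenase that starts removal of the C4 methyl groups, followed the wild-type pattern of Idi1. On low fat its wild-type ratios were -0.21, 0.025 and 0.68, and on high fat 1.43, 1.21 and 1.35. The null arrays gave 0.65, -0.31 and 0.59 on low fat and -0.14, 0.62 and 0.62 on high fat. Every wild-type high-fat array therefore lay above the 9 others. The diet difference in wild-type was 1.16 (SE 0.31, 2.24-fold, limma adjusted p = 0.844), and 1.64, 1.18 and 0.67 within scans 1, 2 and 3. In null it was 0.053 (95% interval -0.63 to 0.74), with an interaction of -1.11 (SE 0.44, adjusted p = 1). Null livers on high fat were 0.96 lower than wild-type (log2 difference -0.96, SE 0.31, adjusted p = 1), by -1.19 within scan 1 and -0.59 within scan 2.

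Hsd17b7, a 3-ketosteroid reductase of the same demethylation steps, was also lower in null on high fat. It read 1.01, 0.72 and 0.76 in wild-type and 0.14, 0.10 and -0.043 in null on that diet, without overlap. On low fat the wild-type values of -0.14, 0.87 and 0.51 overlapped the null values of -0.34, 0.33 and 0.080. The high-fat difference was -0.76 (SE 0.25, limma adjusted p = 1), or -0.96 and -0.62 within scans 1 and 2. The low-fat difference was -0.39, and the second probe gave 0.38 there and -0.45 on high fat.

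Sc5d, the lathosterol desaturase near the end of the pathway, went against Idi1 and Sc4mol in wild-type. Its ratios were -0.25, 0.26 and -0.41 on low fat and -0.63, -0.83 and -0.81 on high fat. In null they were -1.07, 0.10 and -0.84, and -1.53, -0.84 and -1.21. The high-fat wild-type arrays lay below all 3 low-fat ones, and the null ranges overlapped from -1.07 to -0.84. On high fat the null arrays lay below the wild-type ones, by -0.44 on average (adjusted p = 1 by limma), and the second Sc5d probe gave 0.10. The diet difference was -0.62 in wild-type and -0.59 in null (SE 0.30 each, adjusted p = 1 each), and its interaction of 0.035 had a 95% interval of -0.89 to 0.96.

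Among the other enzymes of the arm, Sqle, the squalene epoxidase, had the lowest group mean of the arm, -1.21 ± 0.46 (SD, n = 3) in null on high fat, against -0.35 ± 0.25 in null on low fat, and its arrays did not overlap there. Tm7sf2, a C14 sterol reductase, had an interaction of -0.95 (SE 0.44), and Fdft1, the squalene synthase, of -0.72. Cyp51, the lanosterol demethylase, and Nsdhl, a dehydrogenase of C4 demethylation, were 0.61 and 0.62 higher on high fat in wild-type and differed by -0.019 and 0.036 in null. Lss, which cyclises squalene epoxide, Lbr, another C14 reductase, Ebp, the sterol isomerase, and Dhcr7, the last reductase of the pathway, had differences of -0.37 to 0.25 across the 4 simple comparisons. Nsdhl and Lss again followed the scan, with every array of scan 1 above every array of scan 2.

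All 4 regulators were lower on high fat in null livers (median -0.40), where 54.5% of all genes were higher. The count was 2 of 4 without null low-fat array 2, without null high-fat array 2, and with the slide as a block. Insig2, an ER retention protein for Scap, carried the largest difference. It read 0.93, -0.49 and 0.87 in null on low fat and -1.99, 0.28 and -1.22 on high fat, so 1 array in each group crossed over. The wild-type arrays read -1.28, -0.47 and -0.27 on low fat and -0.81, -0.14 and -0.59 on high fat. The diet difference in null was -1.41 (SE 0.54, limma adjusted p = 1), and the second Insig2 probe gave -0.59. On low fat null was 1.11 above wild-type (SE 0.54, adjusted p = 0.72), by 1.47 within scan 1 and 1.40 within scan 2.

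Srebf2 was 0.44 lower on high fat in null (log2 difference -0.44, SE 0.24), and its high-fat null arrays of -0.29, 0.13 and -0.39 lay below the low-fat ones of 0.43, 0.18 and 0.15. The other 2 Srebf2 probes gave smaller diet differences in null, -0.11 and -0.10. Against wild-type on high fat it differed by -0.50 (limma adjusted p = 1). Scap was 0.27 and 0.28 above wild-type on the low-fat and high-fat diet. Insig1, a second retention protein and itself an SREBP target, had the widest spread: its SD within groups was 0.69 to 1.08, and its largest difference was -0.40, for diet in wild-type.

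The uptake and movement genes did not share a direction. Scarb1, the receptor that takes up HDL cholesterol, read 1.24, 0.47 and 0.25 in wild-type on low fat and 1.39, 0.15 and 0.73 on high fat. In null it read -0.14, 1.56 and 0.79 on low fat and 1.57, 0.091 and 1.92 on high fat. These values sorted by scan, not by group: the 6 arrays of scan 1 lay at 0.79 to 1.92 and the 4 of scan 2 at -0.14 to 0.47. The largest group difference was 0.46, for diet in null. Scan 1 and scan 2 did not overlap for 7 of the 31 genes (Acat2, Lss, Nsdhl, Scap, Npc1, Scarb1 and Soat2), against 15.8% of all genes.

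Npc1, which moves cholesterol out of lysosomes, was among these 7. Its ratios were 0.86, -0.055 and 0.39 in wild-type on low fat, 0.83, -0.023 and 0.49 on high fat, 0.38, 1.08 and 0.67 in null on low fat and 0.48, 0.18 and 1.08 on high fat. All 4 groups overlapped, and the group differences ran from -0.13 to 0.31.

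Stard4, a soluble carrier of sterol between membranes, was the uptake and movement gene with the largest genotype difference. It read -0.79, -0.12 and 0.48 in wild-type on low fat and -0.12, -0.23 and 0.41 on high fat. The null arrays read -1.03, -1.02 and -0.57, and -0.39, -1.27 and -0.27. The ranges overlapped on low fat and not on high fat. Null was lower by 0.73 and 0.66 (log2 differences -0.73 and -0.66, SE 0.34 each, limma adjusted p = 0.705 and 1), and over both diets the difference was -0.69 (SE 0.24, adjusted p = 0.409). The other 2 Stard4 probes gave -0.074 and 0.18 over both diets, so the probes did not share a sign.

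Soat2, the hepatocyte enzyme that esterifies cholesterol for storage and secretion, overlapped between all groups. Its group means were 0.013, 0.072, -0.20 and 0.17, first for wild-type livers on low and high fat, then for null livers on low and high fat.

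**Figure D4:**
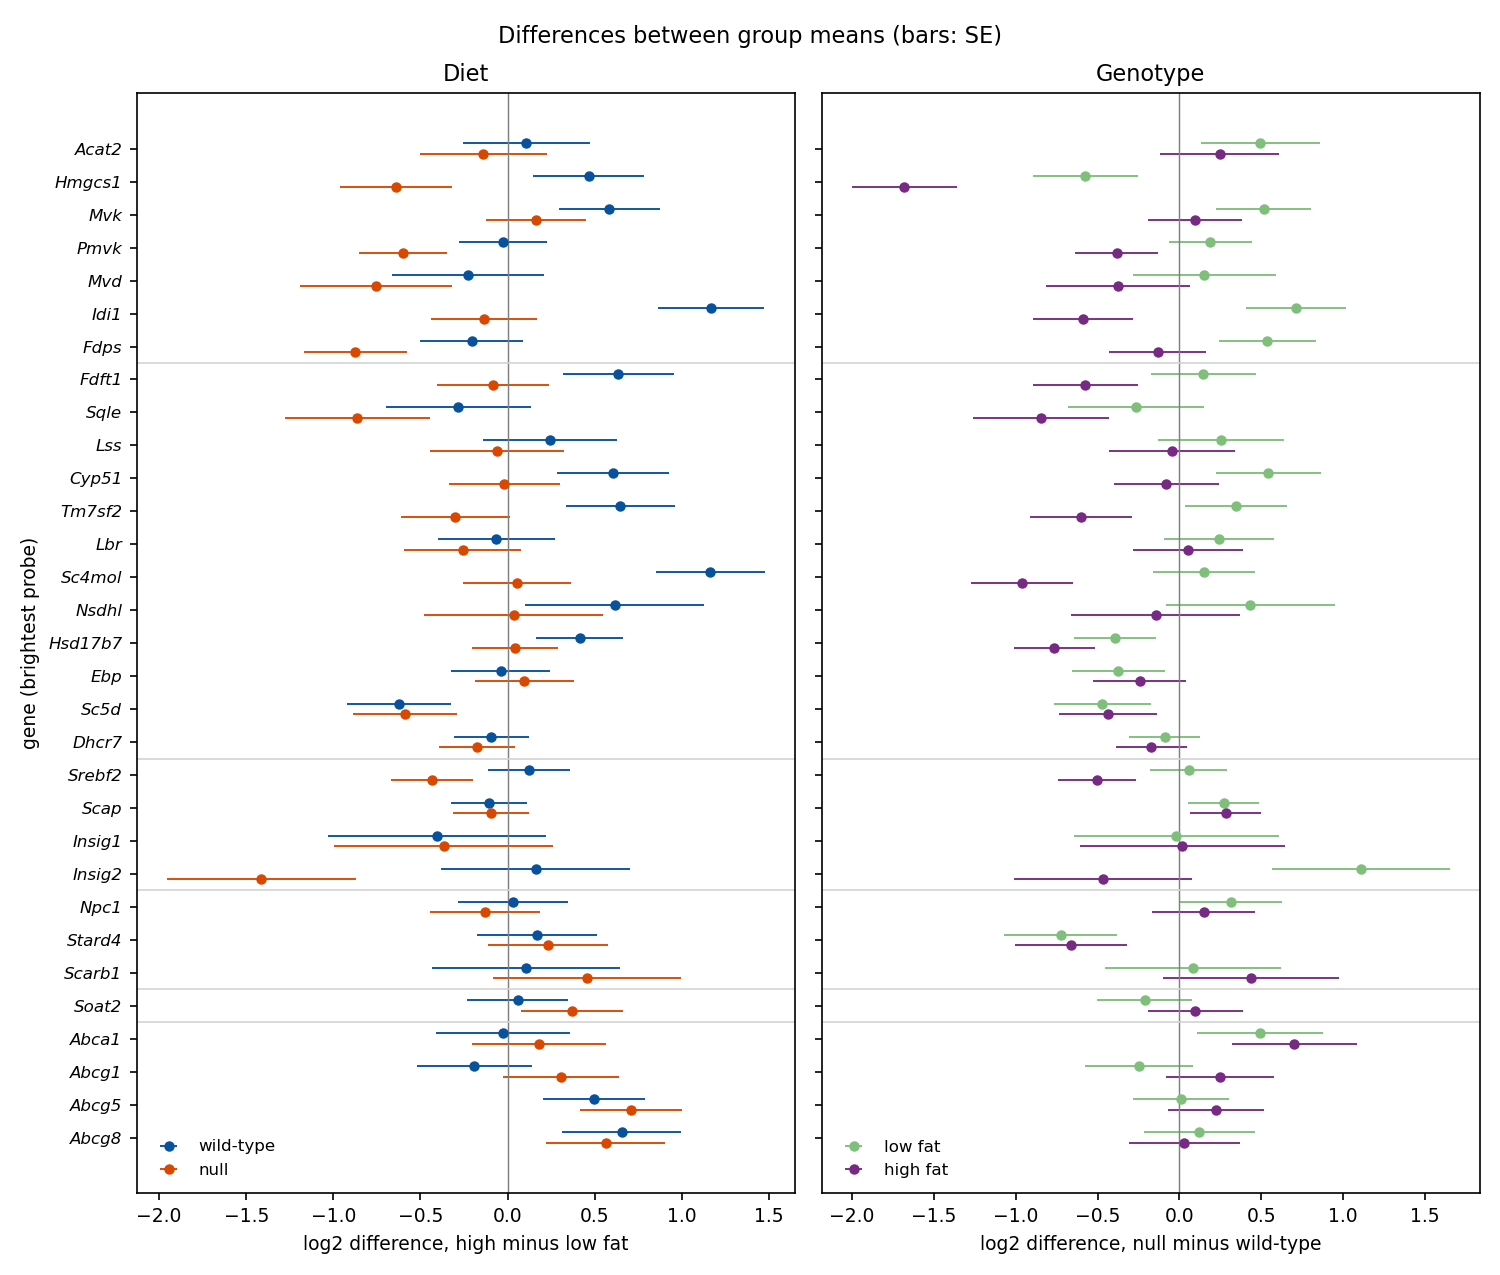
Log2 difference (points) ± SE (bars) between group means for each of the 31 genes, for diet in wild-type and null (left) and for genotype on low and high fat (right). Idi1 and Sc4mol stand at 1.17 and 1.16 for diet in wild-type and near 0 in null, and Hmgcs1 at -1.68 for genotype on high fat.

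In null livers on high fat all 4 efflux transporters were higher than in low-fat null livers (median 0.43) and all 4 were higher than in high-fat wild-type livers (median 0.24). The share of all genes above 0 was 54.5% and 50.6%. In wild-type 2 of 4 were higher on high fat (median 0.23), and on low fat 3 of 4 were higher in null (median 0.066). No efflux gene passed the test.

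Abcg5 read -0.10, 0.59 and 1.23 in wild-type on low fat and 1.16, 1.20 and 0.84 on high fat. In null it read 0.57, 0.65 and 0.52 on low fat and 1.02, 1.17 and 1.69 on high fat. Both groups on high fat stayed at 0.84 or above. The null groups did not overlap, and in wild-type array 3 on low fat was above every high-fat array. The diet difference was 0.50 in wild-type (SE 0.29) and 0.71 in null (SE 0.29, limma adjusted p = 1), or 0.60 over both genotypes (SE 0.21, 1.52-fold, limma adjusted p = 0.745). The null difference was 0.77 within scan 1 and 0.59 within scan 2. The wild-type one was 1.27, 0.61 and -0.39 within scans 1, 2 and 3.

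Abcg8, the partner of Abcg5 in 1 heterodimer, had almost the same diet difference. Its ratios were 0.021, 0.039 and 0.69 in wild-type on low fat and 1.12, 0.32 and 1.28 on high fat. The null arrays read 0.21, 0.67 and 0.24, and 0.29, 1.00 and 1.52. Each pair of ranges overlapped by 1 array or more. The diet difference was 0.66 in wild-type (SE 0.34) and 0.56 in null (SE 0.34), and 0.61 over both (SE 0.24, adjusted p = 0.882 by limma). It was above 0 within every scan: 1.10, 0.28 and 0.59 in wild-type and 0.45 and 0.79 in null. The dimmer Abcg8 probe gave 0.21 over both. Genotype differences of the pair were small: 0.0097 and 0.12 on low fat, and 0.22 and 0.029 on high fat. On high fat their 95% intervals reached from -0.42 to 0.87 for Abcg5 and from -0.72 to 0.78 for Abcg8. The 2 genes lie next to each other on chromosome 17, on opposite strands. Of the 2 Abcg8 starts in the promoter table, 1 lies 108 bases from the Abcg5 start and diverges from it, and the other does not diverge from it.

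Abca1, which loads cholesterol onto apolipoprotein A-I, differed by genotype more than by diet. It read 0.68, -0.89 and -0.014 in wild-type on low fat and 0.23, -0.55 and 0.015 on high fat. The null arrays read 0.47, 0.10 and 0.69 on low fat and 0.60, 0.092 and 1.11 on high fat, all 6 above 0. Null was 0.49 and 0.70 above wild-type (SE 0.38 each), and 0.60 over both diets (SE 0.27, limma adjusted p = 0.594). On high fat the difference was 0.63 within scan 1 and 0.64 within scan 2, and on low fat -0.29 and 1.36. Diet differences were -0.029 in wild-type and 0.18 in null.

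Abcg1, which passes cholesterol to HDL, is known more from macrophages than from hepatocytes. Its arrays read 0.065, -1.26 and -0.14 in wild-type on low fat, -1.04, -0.65 and -0.21 on high fat, -0.31, -0.79 and -0.98 in null on low fat and -0.29, -0.51 and -0.35 on high fat. All groups overlapped. Its differences were -0.25 and 0.25 for genotype on low and high fat, and -0.19 and 0.31 for diet in wild-type and null.

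The diet medians in null livers were -0.14 for synthesis and 0.43 for efflux. In wild-type they were 0.24 and 0.23. These wild-type values turned on single arrays: they were 0.033 and 0.23 without wild-type high-fat array 1, and 0.30 and 0.035 without wild-type low-fat array 2. Over the other fitted settings the efflux median in null ranged from 0.14 to 0.55. It was lowest, with 2 of 4 genes higher, with the slide as a block, and was 0.28 without null high-fat array 3. In wild-type the efflux median ranged from 0.035 to 0.41. The number of synthesis enzymes with an interaction below 0 was 15 to 19 of 19. The efflux interaction median was 0.21, and it ranged from -0.094, with the slide as a block, to 0.41. These lists were described by counts and medians, and no test of the lists was made.

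Of 22 further genes of sterol handling, 21 were measured, and none passed the test in any comparison. The median diet difference of the 21 was -0.033 in wild-type and 0.065 in null, and their median interaction was 0.11, with 10 of 21 below 0. Rdh11, a retinol dehydrogenase known as an SREBP target, had the smallest p of this list. Its null arrays read 0.86, 0.87 and 1.26 on low fat and -0.97, -0.46 and -0.057 on high fat, without overlap. In wild-type it read 0.0011, 0.65 and 0.82, and 0.98, -0.22 and -0.16, which overlapped. The diet difference was -1.49 in null (SE 0.35, limma adjusted p = 1) and -0.29 in wild-type.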

How the data were processed

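The 12 arrays carry 43379 spots. Per the file headers, the authors read them with Agilent Feature Extraction 9.1.3.1. The deposited intensity values are the spots' mean pixel signals with a local background. The deposited log10 ratio of each spot (red over green) is the software's own. The authors' deposited table gives log2 differences between groups, and the submitters' processing notes name limma. Over all 43379 spots it equals differences of the software's ratios to within 5e-10.

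Here the signals were corrected with normexp (offset 50) on the median background and normalized by loess within each array, and ratios were turned to sample over reference. Non-uniform spots (120) were left out. A probe counted as measured when well above background in the sample channel on all 3 arrays of at least 1 group (21490 of 41174 probes), and the brightest probe stood for a gene. limma 3.58.1 in R 4.3.3 fitted 1 mean per group over 12 arrays, with Benjamini-Hochberg adjustment over 14911 genes and a threshold of 0.05. The fit was checked on simulated data, for null against wild-type on low fat. It recovered 27 of 67 log2 changes of 1 (40.3%), 56 of 67 of 2 and 66 of 66 of 4. It also called 5 genes that had not been changed. Most simulated 2-fold changes were thus missed. Far more genes passed in the simulation than the 3 of 14911 that passed in the real low-fat comparison. The Benjamini-Hochberg cutoff is stricter when fewer genes pass. These shares can therefore overstate how often changes of that size would pass in the real comparisons. Probes were named through RefSeq by accession (24844), symbol (6045) or synonym (1810), and otherwise kept the file's name (8475). The number of arrays limits the precision.

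Every one of the 32 genes could be named. Values on every array are given for the 3 smallest p-values in each comparison of 2 groups and for the uptake and efflux genes; other genes of sterol handling are counted, with the smallest p named. The genes and lists were chosen with earlier results of these data known. Alternatives changed the background correction, normalization, probe filter, probe choice, variance model, blocks and arrays. Mbtps2 and Npc1l1 were not measured. Some genes of this pathway are not reported here.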

Additional observations from a re-analysis of the deposited data

How the results depend on the processing

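Across 27 alternative fits, 12 of which left out 1 array, none of the 31 genes passed the threshold on low fat, for diet in either genotype or for the interaction. With the sample channel alone 1 gene passed on high fat (Hmgcs1), 1 for genotype over both diets (Hmgcs1) and 1 for diet over both genotypes (Mvk), and with the scan as a block 1 passed for genotype over both diets (Hmgcs1). The synthesis median moved to 0.73 on low fat, -0.11 on high fat, -0.87 for the interaction and 0.30 for genotype over both diets when arrays were centred on their median in place of loess; the median over all genes then lay at 0.33, 0.083, -0.21 and 0.21, and the cause was not tested. It was -0.74 and -0.012 on high fat within scans 1 and 2, and 0.77 and -0.022 for diet in wild-type. Leaving out 1 array at a time gave -0.48 to -0.14 on high fat, 0.033 to 0.47 for diet in wild-type and -0.73 to -0.28 for the interaction, where the nearest values to 0 came without wild-type high-fat array 1. The other ranges were 0.11 to 0.36 on low fat, -0.34 to -0.082 for diet in null, -0.18 to 0.024 for genotype and -0.060 to 0.086 for diet over both. With the software's processed signals Hmgcs1 reversed to 1.90 on high fat and 0.72 over both diets; leaving out spots whose reference was near background, an alternative chosen after seeing the data, kept its sign. With the replicate number as a block no gene passed, all 217 signs were kept and the interaction median was -0.57. With the slide as a block no gene passed either, but 176 of 217 signs were kept, 25 values moved by more than the spread between replicates, and the efflux interaction median turned from 0.21 to -0.094. Arrays of 1 number did not deviate together (median r -0.015 over 18 pairs), while arrays of 1 scan did (0.38 over 20 pairs), so the numbers were not taken as pairs. For arrays of different scans the median r was -0.18. The main fit nevertheless had no term for scan. With the scan as a block, the genes passing out of 14911 went from 43 to 96 for genotype over both diets. For diet in wild-type they went from 1 to 0. All 31 genes were well above background in the sample channel on all 12 arrays, and 3 arrays a group limit the precision.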
